A study of Mus musculus with 12 samples.

Results

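The mouse brain endothelioma line b.End5 was compared with brain microvascular endothelial cells that had been freshly isolated and not cultured. RNA of b.End5 cultures (3 arrays) and of non-cultured cells (3 arrays) had been hybridised to microarrays, 6 of the series' 12, and both groups were taken by their labels. The remaining arrays came from isolated brain endothelial cells kept for 5 days on filters, alone (single-cultured, 3 arrays) or above 3-week glial cultures without contact (co-cultured, 3 arrays). Only the non-cultured cells were described as sorted with magnetic beads against PECAM1, an adhesion molecule of endothelial cells. Culture, the transformed state of the line and the bead sort therefore differed together between both groups and cannot be told apart. The sources used here gave no strain, age or treatment for either group, and nothing says that the arrays of a group came from separate cultures or animals, so p-values measure the spread between these arrays, which may be technical. The comparison covered 15204 genes, 1 probe set per gene.

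Endothelial cells of brain capillaries form the blood-brain barrier. They seal their contacts with tight junctions, carry nutrients on selective transporters, pump drugs back into blood with ABC transporters and take up little by vesicles, and Wnt signals from neural cells maintain these traits in the tissue. The b.End lines were derived from endothelium expressing the polyoma middle T antigen, a viral protein that binds Src family kinases and phosphatidylinositol 3-kinase, and b.End5 grows without limit and serves as a model of brain endothelium in culture.

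Values are log2 expression as deposited, and a probe set has a level of its own that cannot be set against that of another. An array's no-target level, below which 95% of its 27 control probe sets for bacterial RNA fell, lay between 4.01 and 4.46, and 79.4% to 82.9% of genes lay above it. A gene was called when its log2 difference, b.End5 minus non-cultured cells, was at least 1 in size with a Benjamini-Hochberg adjusted p under 0.05 from limma, and only called genes are said to have risen or fallen. Errors of differences are limma's standard errors (SE), and per-array values stand in the order of replicates 1, 2 and 3. For a gene at or under the no-target level on every array of a group, the difference is a bound, given as "at least" with both measured means ± SD. With 3 arrays a group, their number limits the precision.

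Within the b.End5 group, 1 array differed from the others, the array labelled replicate 2. Across genes it correlated with replicates 1 and 3 at 0.9694 and 0.9675, while those correlated with each other at 0.9951 and non-cultured arrays with each other at 0.9935 to 0.9944. In replicate 2, 1073 genes lay over 1 log2 unit from the mean of replicates 1 and 3, of which 420 were higher and 653 lower, whereas replicates 1 and 3 were that far apart in 42 genes. The furthest above were Xlr and 3830403N18Rik, with the same values of 10.73 in replicate 2 and 2.95 and 2.81 in replicates 1 and 3, and AI467606, Inhba, Eif2s3y, Serpinh1, Nefm and Lgals1. The furthest below were Lrrn1 (2.66 in replicate 2, 11.07 and 11.18 in replicates 1 and 3), Col5a2, Cd24a, Xist, Car2, Prom1, Mansc1 and Atp8b1. Xist, the RNA that coats the inactive X chromosome of female cells, was at 6.20 in replicate 2, 12.10 and 12.48 in replicates 1 and 3, and between 11.09 and 12.19 on the 9 arrays of primary cells. The Y-linked genes Eif2s3y, Ddx3y, Uty and Kdm5d were at 9.24, 7.84, 5.93 and 5.38 in replicate 2, and each was between 2.25 and 3.42 on all other arrays. Usp9y, also Y-linked, did not stand out, at 3.97 in replicate 2 and between 3.66 and 4.36 on the other arrays. The array labelled b.End5 replicate 2 thus carried transcripts of these 4 Y-linked genes, Usp9y apart, and little Xist, unlike any other array. Values without it are given beside the called differences and bounds below that it moves by over 1.5 times.

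**Figure D1:**
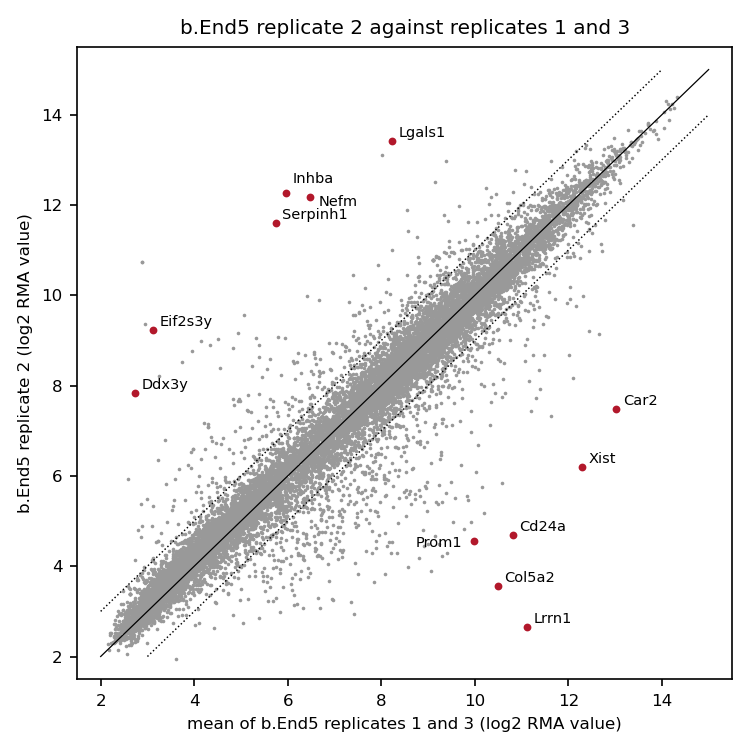
Log2 values of 15204 genes on the array labelled b.End5 replicate 2 (vertical axis) against the mean of b.End5 replicates 1 and 3 (horizontal axis). The solid line marks equal values and dotted lines mark 1 log2 unit; 420 genes lie over 1 unit above and 653 lie over 1 unit below, with examples in red (Xist at 6.20 in replicate 2, Eif2s3y at 9.24).

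Of 15204 genes, 2761 were called (18.2%), of which 1384 were higher in b.End5 (9.1%) and 1377 were lower (9.06%). Counts for the gene lists below are to be read beside these shares. Over 4-fold differences were found for 560 of the higher and 636 of the lower genes, and over 16-fold differences for 139 and 208. The arrays of both groups did not overlap in 7486 genes (49.2%). The median difference over all genes was 0.078. Without b.End5 replicate 2, 2842 genes were called, 1466 higher and 1376 lower, of which 2532 were called in the same direction with it. In total, 97 called genes rose in b.End5 from the no-target level of the non-cultured arrays and 162 fell to it. In such bulk samples, fewer cells of a type and less RNA per cell cannot be told apart.

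Igfbp5, Ephb1 and Meis2 were among the 15 genes with the largest fitted rises. Igfbp5, which binds insulin-like growth factors, was at 13.70, 13.64 and 13.92 in b.End5, against 3.83, 4.88 and 4.99 in non-cultured cells, a difference of 9.19 ± 0.35 (583-fold, adjusted p = 2.49e-09). Ephb1, a receptor for ephrins, averaged 11.52 ± 0.06 in b.End5 and 3.39 ± 0.23 in non-cultured cells and was at least 162-fold higher (adjusted p = 6.19e-10). Meis2, a homeodomain partner of Hox proteins, averaged 10.86 ± 1.14 in b.End5 and 3.10 ± 0.24 in non-cultured cells and was at least 103-fold higher (adjusted p = 1.54e-07; at least 163-fold without b.End5 replicate 2). All of these arrays were separated by over 6 log2 units, although Meis2 was lower in b.End5 replicate 2 (9.55) than in replicates 1 and 3 (11.55 and 11.50). Serpina1b, an alpha-1 antitrypsin, was at least 101-fold higher (10.83 ± 0.91 in b.End5, 3.00 ± 0.22 in non-cultured cells, adjusted p = 7.92e-09). Fbp1, an enzyme of gluconeogenesis, was at least 68.8-fold higher (10.28 ± 1.98 in b.End5, 3.16 ± 0.17 in non-cultured cells, adjusted p = 7.28e-06). It was at 9.55, 12.51 and 8.76 in b.End5, and the bound was 31.7-fold without b.End5 replicate 2 and 116-fold without replicate 3. The interferon-inducible genes Ifi202b and Gbp2b were at least 67.7-fold and 48.6-fold higher (means of 10.25 ± 0.60 and 9.78 ± 1.42 in b.End5, 3.29 ± 0.16 and 3.30 ± 0.36 in non-cultured cells, adjusted p = 3.7e-09 and 2.04e-06), and the bound of Gbp2b was 85.8-fold without b.End5 replicate 2. Sema3a, a repellent of axons and vessels, rose by 7.51 ± 0.30, Egln3, an oxygen-sensing prolyl hydroxylase, by 7.36 ± 0.17, Sh3gl3, an endophilin, by 6.96 ± 0.16, and Tll1, a procollagen protease, by 6.89 ± 0.50. Ednrb, an endothelin receptor, rose by 6.56 ± 0.65, AA467197 by 6.46 ± 0.31, Vldlr, a lipoprotein and reelin receptor, by 6.39 ± 0.32, and Tnfaip2 by 6.31 ± 0.23.

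The genes that fell furthest included 5 membrane carriers of the brain endothelium. Slco1a4, an organic anion transporter, was at 3.39, 3.39 and 3.36 in b.End5, against 13.70, 13.74 and 13.82 in non-cultured cells, and was at least 710-fold lower (means 3.38 ± 0.02 and 13.75 ± 0.06, adjusted p = 1.76e-09). Slco1c1, which carries thyroxine, was at 3.96, 4.34 and 4.46 in b.End5, against 13.82, 13.71 and 13.87 in non-cultured cells, and fell by 9.55 ± 0.15 on the log2 scale (749-fold, adjusted p = 1.67e-11). On the b.End5 arrays Slco1a4 lay under the no-target level and Slco1c1 lay at most 4.46. Slc38a5, a glutamine carrier, was at least 159-fold lower (3.10 ± 0.24 in b.End5, 11.59 ± 0.19 in non-cultured cells, adjusted p = 1.21e-10). Slc22a8, an organic anion transporter, fell by 7.67 ± 0.16, and Slc19a3, a thiamine transporter, by 7.58 ± 0.22. Fosb, a subunit of the AP-1 factor, was at least 304-fold lower (3.95 ± 0.21 in b.End5, 12.53 ± 0.15 in non-cultured cells, adjusted p = 1.25e-09). Itih5, a hyaluronan-binding protein, was at least 250-fold lower (3.75 ± 0.12 in b.End5, 12.24 ± 0.10 in non-cultured cells, adjusted p = 3.4e-09), and the calcification inhibitor Mgp at least 170-fold (3.82 ± 0.42 and 11.69 ± 0.47, adjusted p = 3.11e-08). The zinc finger factor Zic2 was at least 141-fold lower (3.20 ± 0.56 in b.End5, 11.42 ± 0.15 in non-cultured cells, adjusted p = 4.56e-10). Car4, a carbonic anhydrase of the capillary surface, fell by 8.31 ± 0.39, Apcdd1, a Wnt inhibitor and Wnt target, by 8.26 ± 0.30, Ptn, a growth factor, by 7.91 ± 0.31, Kcp by 7.83 ± 0.34 and Ndnf by 7.75 ± 0.19.

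**Figure D2:**
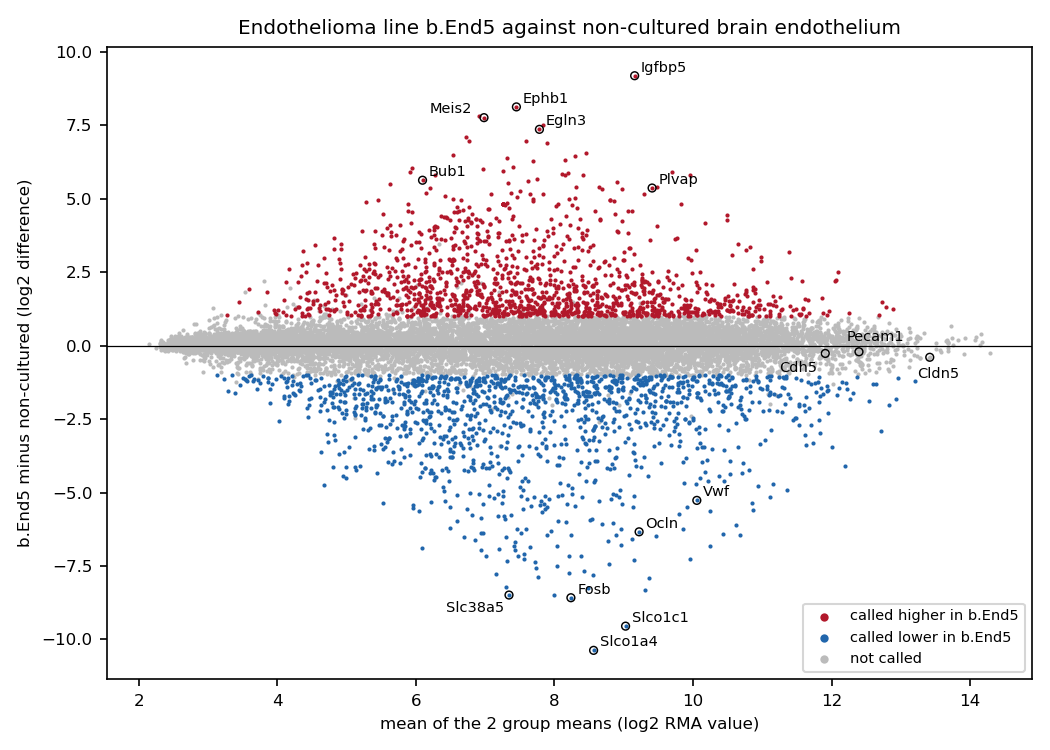
Log2 difference, b.End5 minus non-cultured cells (vertical axis), against the mean of both group means (horizontal axis, log2 RMA value) for 15204 genes. Red points are the 1384 genes called higher in b.End5, blue points the 1377 called lower and grey points the rest; the endothelial genes Pecam1, Cdh5 and Cldn5 lie close to 0 at the bright end, and the carriers Slco1a4 and Slco1c1 lie lowest.

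Most genes of general endothelial identity were not called. Of 37 measured, 3 rose and 9 fell, with a median difference of -0.190 (over all genes, 9.1% were called higher and 9.06% lower, and the median was 0.078). Pecam1 was at 12.44, 11.94 and 12.50 in b.End5, against 12.69, 12.44 and 12.37 in non-cultured cells (difference -0.21 ± 0.20, adjusted p = 0.4619). Cdh5, the cadherin of endothelial junctions, was at 11.71, 12.04 and 11.58 in b.End5, against 12.17, 12.00 and 11.96 in non-cultured cells (-0.27 ± 0.14, adjusted p = 0.1524). The arrays of both groups overlapped for both genes, for Cdh5 only through b.End5 replicate 2, and neither gene was called. With 3 arrays a group, this does not show that the levels were equal. The angiopoietin receptor Tek differed by -0.10 ± 0.10, its relative Tie1 by -0.07 ± 0.33, the VEGF receptor Kdr by -0.56 ± 0.20, the nitric oxide synthase Nos3 by -0.19 ± 0.26 and the ETS factor Erg by 0.00 ± 0.16, none of them called.

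The endothelial genes that were called included markers of vessel type. Plvap, which forms the diaphragms of fenestrae and caveolae and is absent from mature barrier capillaries, was at 12.07, 12.32 and 11.88 in b.End5, against 5.62, 6.99 and 7.57 in non-cultured cells, and rose by 5.37 ± 0.52 (41.2-fold, adjusted p = 6.46e-06). The groups lay over 4 log2 units apart, and the non-cultured arrays spread more than those of b.End5. Calcrl, a receptor for adrenomedullin and calcitonin gene-related peptide, rose by 1.84 ± 0.18, and Flt4, the receptor of VEGF-C, by 1.03 ± 0.16, a call that was lost under 2 other scalings (0.95 with both cyclic loess and median centring), with array weights (0.99), and without non-cultured replicate 2 (0.94) or b.End5 replicate 3 (0.93). Vwf, the platelet-binding glycoprotein, was at 8.07, 5.51 and 8.68 in b.End5, against 12.73, 12.78 and 12.56 in non-cultured cells (-5.27 ± 0.59, adjusted p = 2.15e-05; -4.31 without b.End5 replicate 2). Sox17, a factor of arterial and barrier endothelium, was at 6.03, 3.98 and 5.46 in b.End5, against 11.19, 11.07 and 11.26 in non-cultured cells (-6.02 ± 0.38; -5.43 without b.End5 replicate 2). Ptprb, a phosphatase that acts on Tek, fell by 2.53 ± 0.16, the factor Gata2 by 2.09 ± 0.15 and Flt1, a VEGF receptor, by 2.03 ± 0.21.

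Of 28 measured junction genes, 2 rose and 8 fell, with a median of -0.482, so that 35.7% were called, beside 18.2% of all genes. The share that rose did not exceed the 9.1% called higher over all genes. Cldn5, the main claudin of the barrier, was at 13.23, 13.35 and 13.08 in b.End5, against 13.66, 13.62 and 13.56 in non-cultured cells, a difference of -0.40 ± 0.15 that was not called (adjusted p = 0.05213) although the arrays did not overlap. Ocln, a strand protein of tight junctions, was at 6.79, 4.31 and 7.06 in b.End5, against 12.63, 12.28 and 12.27 in non-cultured cells, and fell by 6.34 ± 0.54 (80.9-fold, adjusted p = 2.22e-06; -5.47 without b.End5 replicate 2, which had the lowest value). Transcripts for proteins of tricellular contacts also fell. Lsr fell by 5.49 ± 0.18 and Marveld2 fell by 4.37 ± 0.17, with b.End5 arrays at 6.52, 6.39 and 6.26 for Lsr, against 12.01, 11.91 and 11.73 in non-cultured cells. Igsf5, an adhesion molecule of junctions, was at least 39.9-fold lower (3.38 ± 0.59 in b.End5, 9.60 ± 0.01 in non-cultured cells, adjusted p = 3.86e-09). Tjp1, the scaffold that anchors strands to actin, differed by -0.58 ± 0.11 (adjusted p = 0.0014) and was not called. The genes that rose were Nectin2 (3.46 ± 0.29), a nectin of adherens junctions, and Jam3 (2.71 ± 0.21), a junctional adhesion molecule, while its relative F11r fell by 2.49 ± 0.11 and Jam2 fell by 2.38 ± 0.32.

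**Figure D3:**
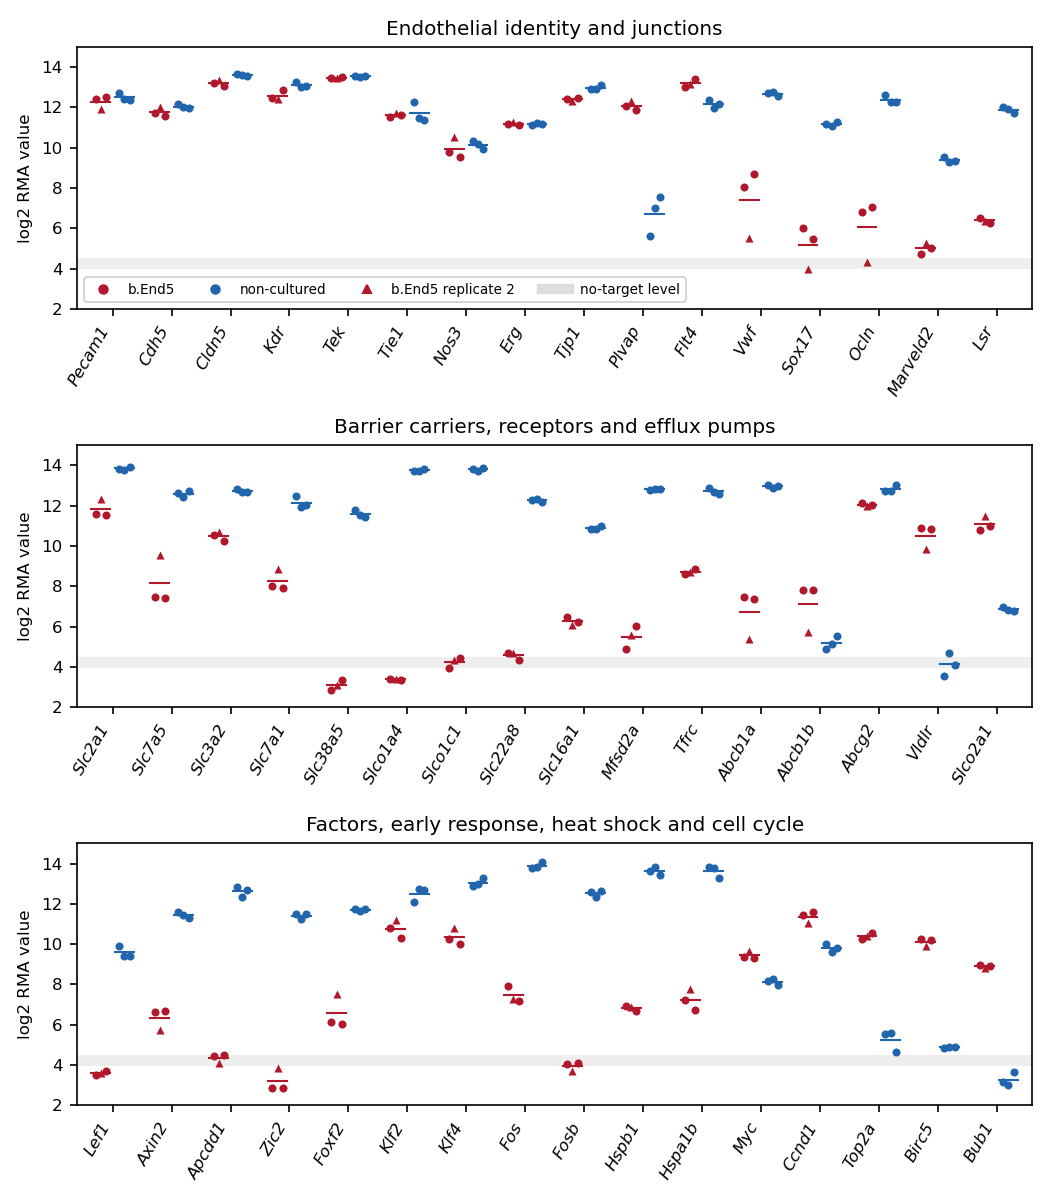
Log2 values of 48 genes on each array, b.End5 (red, left of each pair; triangle, replicate 2) and non-cultured cells (blue, right of each pair), with a bar at each group's mean and a grey band for the no-target levels of 4.01 to 4.46. Pecam1, Cdh5, Tek and Erg were not called. Ocln, Slco1a4, Slco1c1, Fosb and Hspb1 lie far lower in b.End5, and Plvap, Vldlr, Top2a and Bub1 lie far higher.

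Carriers and receptors of the barrier were lower in b.End5 across most of their list. Of 45 measured, 29 fell and 3 rose (5 rose without b.End5 replicate 2), with a median of -2.308. Slc2a1, the glucose transporter GLUT1, was at 11.57, 12.33 and 11.55 in b.End5, against 13.84, 13.79 and 13.91 in non-cultured cells, and fell by 2.03 ± 0.18 (4.09-fold, adjusted p = 3.51e-06). Mfsd2a, a carrier of docosahexaenoic acid that holds down vesicle transport, was at 4.88, 5.56 and 6.04 in b.End5, against 12.77, 12.81 and 12.84 in non-cultured cells (-7.31 ± 0.27, 159-fold). Tfrc, the transferrin receptor, was at 8.60, 8.72 and 8.85 in b.End5, against 12.89, 12.68 and 12.59 in non-cultured cells (-3.999 ± 0.16). No b.End5 array reached the range of the non-cultured arrays for Slc2a1, Mfsd2a or Tfrc. The organic anion transporter Slco2b1 fell by 7.43 ± 0.23 and the lactate carrier Slc16a1 by 4.63 ± 0.15. Vldlr was at 10.88, 9.83 and 10.82 in b.End5, against 3.57, 4.69 and 4.10 in non-cultured cells. Slco2a1, which takes up prostaglandins, rose by 4.25 ± 0.24, with b.End5 arrays at 10.78, 11.51 and 11.004 and non-cultured arrays at 6.97, 6.81 and 6.77. Slc29a1, a nucleoside carrier, rose by 1.45 ± 0.28 (1.06 without b.End5 replicate 2).

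Amino acid transporters were called lower more often than higher. Of 39 measured, 13 fell and 3 rose, with a median of -0.302, so that 41% were called, beside 18.2% of all genes. The share that rose did not exceed the 9.1% called higher over all genes. Slc7a5, the light chain of the large neutral amino acid transporter LAT1, was at 7.48, 9.57 and 7.41 in b.End5, against 12.61, 12.41 and 12.73 in non-cultured cells (-4.43 ± 0.45, 21.6-fold, adjusted p = 1e-05; -5.14 without b.End5 replicate 2). Its heavy chain Slc3a2 was at 10.57, 10.69 and 10.27 in b.End5, against 12.83, 12.68 and 12.69 in non-cultured cells (-2.22 ± 0.13, 4.66-fold). Slc7a1, the carrier of arginine and lysine, was at 8.001, 8.84 and 7.93 in b.End5, against 12.49, 11.93 and 12.01 in non-cultured cells (-3.89 ± 0.25, 14.8-fold). Replicate 2 was the highest b.End5 array for each of these genes and still lay below every non-cultured array. Slc1a1, a glutamate transporter, was at least 104-fold lower (3.65 ± 0.51 in b.End5, 10.98 ± 0.13 in non-cultured cells, adjusted p = 6.19e-10), and the glutamine carrier Slc38a3 fell by 4.85 ± 0.22. Slc43a3, which carries nucleobases, rose by 3.60 ± 0.25 and Slc7a7, another light chain of Slc3a2, by 2.53 ± 0.21. Slc43a1 was at least 1.4-fold higher (4.66 ± 0.18 in b.End5, 3.51 ± 0.19 in non-cultured cells, adjusted p = 0.002042).

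Of 28 ABC transporters, 7 fell and 3 rose, with a median of -0.201, so that 35.7% were called, beside 18.2% of all genes. The share that rose was close to the 9.1% called higher over all genes. Abcb1a, the P-glycoprotein of mouse brain capillaries, was at 7.48, 5.39 and 7.35 in b.End5, against 13.01, 12.89 and 13.00 in non-cultured cells, and fell by 6.23 ± 0.42 (74.9-fold, adjusted p = 2.72e-07; -5.55 without b.End5 replicate 2). Abcb1b, its paralog, was at 7.84, 5.72 and 7.83 in b.End5, against 4.88, 5.12 and 5.54 in non-cultured cells, and rose by 1.95 ± 0.49 (3.86-fold, adjusted p = 0.007935; 2.65 without b.End5 replicate 2). Both paralogs have similar sequences, so their probe sets may share signal. Abcg2, the breast cancer resistance protein, was at 12.12, 11.96 and 12.03 in b.End5, against 12.75, 12.73 and 13.05 in non-cultured cells, and was not called (-0.81 ± 0.11, adjusted p = 0.000127) because its difference was under 2-fold. Abcc3 was at least 14.4-fold higher in b.End5 (8.02 ± 0.48 against 3.85 ± 0.34 in non-cultured cells, adjusted p = 1.05e-07), and Abcc1 rose by 1.85 ± 0.21. Abcc6 and Abcg3 were at least 11.2-fold and 8.02-fold lower (means of 3.78 ± 0.05 and 3.83 ± 0.09 in b.End5, 7.76 ± 0.35 and 7.28 ± 0.38 in non-cultured cells, adjusted p = 8.21e-09 and 2.61e-05), and Abca5 fell by 4.16 ± 0.30.

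Of 38 measured Wnt signalling genes and Wnt targets, 15 fell, 2 rose and 21 were not called, with a median of -0.516. Lef1, a nuclear partner of beta-catenin, was at 3.49, 3.61 and 3.72 in b.End5, against 9.92, 9.41 and 9.44 in non-cultured cells, and was at least 39.6-fold lower (means 3.61 ± 0.12 and 9.59 ± 0.29, adjusted p = 1.23e-09). Axin2, a feedback inhibitor and standard target of the pathway, was at 6.61, 5.74 and 6.69 in b.End5, against 11.57, 11.45 and 11.30 in non-cultured cells (-5.09 ± 0.23, 34.2-fold). Tcf7, a relative of Lef1, fell by 5.13 ± 0.17 and Tnfrsf19 by 5.56 ± 0.29. On the b.End5 arrays Lef1 lay under the no-target level, whereas Axin2 lay above it on all 3. Fzd7, a Wnt receptor, rose by 1.27 ± 0.27 and Tcf7l1, a repressor of the same family as Tcf7, by 1.15 ± 0.24.

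Of 31 measured transcription factors tied to the barrier or to blood flow, 19 fell, 3 rose and 9 were not called, with a median of -1.345. Foxf2, a factor of brain vessels and pericytes, was at 6.12, 7.55 and 6.06 in b.End5, against 11.75, 11.63 and 11.75 in non-cultured cells (-5.13 ± 0.32), and Foxq1 fell by 4.66 ± 0.20. Tbx3 was at least 42.7-fold lower (3.94 ± 0.14 in b.End5, 9.70 ± 0.18 in non-cultured cells, adjusted p = 3.4e-09). The flow-induced factors Klf2 and Klf4 were at 10.80, 11.20 and 10.30 and at 10.24, 10.79 and 10.004 in b.End5, against 12.10, 12.72 and 12.70 and 12.89, 12.97 and 13.30 in non-cultured cells. They fell by 1.74 ± 0.39 (adjusted p = 0.004185) and 2.71 ± 0.25, without overlap of the arrays. Foxc2, a factor of lymphatic and valve endothelium, rose by 3.72 ± 0.43, Nr2f2, which specifies veins, by 1.94 ± 0.25 and the endothelial repressor Bcl6b by 1.33 ± 0.12.

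Immediate early genes, which respond within minutes to growth factors and stress, had the largest share of members called lower among the lists described here. Of 36 measured, 28 fell and Myc alone rose, with a median of -3.039. Fos was at 7.90, 7.27 and 7.20 in b.End5, against 13.78, 13.84 and 14.06 in non-cultured cells (-6.44 ± 0.30, 86.8-fold, adjusted p = 1.19e-08). Ccn1, a matrix protein induced by serum, was at 6.17, 6.55 and 5.99 in b.End5, against 12.68, 12.72 and 12.71 in non-cultured cells (-6.47 ± 0.17, 88.6-fold). Nr4a1, an orphan nuclear receptor, was at 7.09, 6.87 and 6.84 in b.End5, against 12.70, 12.62 and 12.67 in non-cultured cells (-5.73 ± 0.51, 53.1-fold). The 6 arrays separated by over 4 log2 units for each. Jun fell by 3.32 ± 0.19, Egr1 by 3.44 ± 0.37 and Atf3 by 4.79 ± 0.29, and Myc, a growth-promoting factor, rose by 1.31 ± 0.18.

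Among heat shock proteins and their co-chaperones, most members were not called. Of 25 measured, 6 fell, and none rose by the limma test (6 were higher and 10 lower at an unadjusted p under 0.05), with a median of -0.159. Without b.End5 replicate 2, and likewise without b.End5 replicate 3, 1 rose. Hspb1, a small heat shock protein, was at 6.95, 6.88 and 6.69 in b.End5, against 13.65, 13.85 and 13.43 in non-cultured cells (-6.80 ± 0.31, 112-fold, adjusted p = 8.9e-09). Hspa1b, an inducible HSP70, was at 7.23, 7.78 and 6.71 in b.End5, against 13.84, 13.79 and 13.29 in non-cultured cells (-6.40 ± 0.26, 84.4-fold). Its near-identical copy Hspa1a differed by -6.10 ± 0.20, and shared probes may make these 1 measurement. Dnajb1, a co-chaperone of HSP70, fell by 2.63 ± 0.15. Promoters (250 bases before to 50 after the start, from RefSeq on GRCm38.p6) were searched on both strands for GAANNTTC, a pair of inverted heat shock element units. It was in 47.4% of the 19 promoters of this list with an entry and in 7.95% of 27025 promoters. The promoters of the 2 genes that fell furthest are shown because they hold it, in capitals. Hspb1 is on the plus strand at chr5:135887669-135887968 and Hspa1b on the minus strand at chr17:34959189-34959488. In Hspa1b, the capitals after the heat shock motif mark ATTGG, the reverse complement of CCAAT.
Hspb1: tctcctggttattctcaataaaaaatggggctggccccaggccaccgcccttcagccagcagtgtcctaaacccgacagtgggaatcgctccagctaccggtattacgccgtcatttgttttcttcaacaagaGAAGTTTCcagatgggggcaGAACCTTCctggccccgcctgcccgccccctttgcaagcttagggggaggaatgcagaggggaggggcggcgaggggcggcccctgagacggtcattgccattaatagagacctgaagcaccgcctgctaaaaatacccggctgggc
Hspa1b: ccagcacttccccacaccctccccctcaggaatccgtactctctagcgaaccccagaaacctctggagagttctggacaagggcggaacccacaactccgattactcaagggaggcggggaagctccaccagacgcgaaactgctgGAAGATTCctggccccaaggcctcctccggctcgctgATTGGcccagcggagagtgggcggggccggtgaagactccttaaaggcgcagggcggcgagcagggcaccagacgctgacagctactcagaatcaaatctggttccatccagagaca
The motif began at -117 and -97 from the start site in Hspb1 and at -104 in Hspa1b. Nothing about the factor that binds it is drawn from these letters.

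Most mitosis and DNA replication genes rose. Of 45 mitosis genes, 42 rose and none fell by the limma test (44 were higher and 1, the separase inhibitor Pttg1, lower at an unadjusted p under 0.05), with a median of 3.667. Bub1, a spindle checkpoint kinase, was at 8.97, 8.83 and 8.93 in b.End5, against 3.14, 3.02 and 3.68 in non-cultured cells, and was at least 26.7-fold higher (means 8.91 ± 0.07 and 3.28 ± 0.35, adjusted p = 9.46e-10). Birc5, the chromosomal passenger survivin, was at 10.27, 9.91 and 10.20 in b.End5, against 4.84, 4.88 and 4.91 in non-cultured cells (5.25 ± 0.14, 38.1-fold). Top2a, the topoisomerase of dividing cells, was at 10.26, 10.39 and 10.58 in b.End5, against 5.53, 5.60 and 4.63 in non-cultured cells (5.16 ± 0.23, 35.7-fold). For each, all b.End5 arrays, replicate 2 included, lay close together and above every non-cultured array. Nuf2, of the kinetochore, rose by 5.08 ± 0.30 and cyclin B2, Ccnb2, by 4.84 ± 0.29, while Pttg1 differed by -0.97 ± 0.11 and was not called. A single mitosis gene was called lower under cyclic loess and median centring, and without non-cultured replicate 3 or b.End5 replicate 1 or 3. Of 39 DNA replication genes, 33 rose and none fell by the limma test (39 higher and 0 lower at an unadjusted p under 0.05), with a median of 1.858. Thymidine kinase Tk1 rose by 3.89 ± 0.26, the polymerase Pole by 3.88 ± 0.27 and the initiation factor Mcm10 by 3.88 ± 0.16.

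The promoters of mitosis genes were searched for CCAAT, the site of NF-Y, and for TTTGAA, the cell cycle homology region known from genes of late cell cycle phases, on both strands. CCAAT was in 76.3% of 38 mitosis promoters, 56.2% of 32 replication promoters and 37.9% of all 27025 promoters. TTTGAA was in 71.1% of the mitosis promoters, 9.38% of the replication promoters and 18.1% of all. The promoter of Bub1, the mitosis gene described first, is shown with those of Top2a and Ccnb2, which hold both motifs. They lie on the minus strand at chr2:127831810-127832109 (Bub1), chr11:99024140-99024439 (Top2a) and chr9:70421505-70421804 (Ccnb2). Capitals mark CCAAT and TTTGAA or their reverse complements ATTGG and TTCAAA, and in Top2a also 1 GAANNTTC that overlaps the first TTTGAA.
Bub1: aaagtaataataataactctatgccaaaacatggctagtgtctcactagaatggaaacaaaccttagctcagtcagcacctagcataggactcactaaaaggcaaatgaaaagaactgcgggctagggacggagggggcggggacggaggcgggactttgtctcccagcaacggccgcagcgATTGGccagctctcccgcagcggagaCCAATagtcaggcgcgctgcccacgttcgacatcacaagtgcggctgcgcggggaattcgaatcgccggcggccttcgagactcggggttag
Top2a: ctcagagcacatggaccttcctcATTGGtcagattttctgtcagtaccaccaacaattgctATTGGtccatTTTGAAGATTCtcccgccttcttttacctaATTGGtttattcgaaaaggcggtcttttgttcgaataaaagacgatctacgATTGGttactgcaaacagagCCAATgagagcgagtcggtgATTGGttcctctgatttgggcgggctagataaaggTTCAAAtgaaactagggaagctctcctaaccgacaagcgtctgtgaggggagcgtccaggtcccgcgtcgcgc
Ccnb2: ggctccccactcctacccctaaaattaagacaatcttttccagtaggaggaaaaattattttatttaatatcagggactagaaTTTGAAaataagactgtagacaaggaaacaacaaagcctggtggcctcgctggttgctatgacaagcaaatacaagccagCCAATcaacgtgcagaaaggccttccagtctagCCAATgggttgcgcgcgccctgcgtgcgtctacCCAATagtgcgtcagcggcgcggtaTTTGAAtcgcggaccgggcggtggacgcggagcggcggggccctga
Bub1 held CCAAT in either direction at -68 and -42 from its start site and no TTTGAA. Top2a held 6 CCAAT and Ccnb2 held 3, with TTTGAA in either direction at -179 and -23 in Top2a and at -167 and 4 in Ccnb2. The promoter of Birc5 held neither motif, and those of the early genes Fosb and Ccn1 held none of the 6 motifs searched. A match is a description of these letters only.

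A list of cell cycle inhibitors, D cyclins and p53 targets moved in both directions. Of 31 measured, 7 rose and 6 fell (4 and 9 without b.End5 replicate 2), with a median of -0.101. Pmaip1, the p53-induced death factor Noxa, was at 2.89, 2.48 and 2.55 in b.End5, against 9.58, 9.39 and 9.62 in non-cultured cells, and was at least 38.1-fold lower (means 2.64 ± 0.22 and 9.53 ± 0.12, adjusted p = 2.1e-10). Cdkn1c, the cyclin-dependent kinase inhibitor p57, was at 8.75, 5.64 and 8.21 in b.End5, against 11.69, 11.58 and 11.34 in non-cultured cells (-4.004 ± 0.59; -3.06 without b.End5 replicate 2). Gadd45a fell by 2.91 ± 0.39 and Btg2 by 2.88 ± 0.26. The p53 targets Phlda3 and Zmat3 rose by 3.42 ± 0.32 and 2.10 ± 0.15, and cyclin D1, Ccnd1, by 1.56 ± 0.18. Ccnd2 rose by 1.57 ± 0.40, a call that was lost without b.End5 replicate 2 (0.96). Trp53 itself differed by 0.32 ± 0.18 (adjusted p = 0.1946). Cdkn1a, the inhibitor p21, was at 10.43, 11.36 and 10.31 in b.End5, against 12.08, 11.57 and 11.68 in non-cultured cells, and was not called (-1.08 ± 0.46, adjusted p = 0.08788), but was called without b.End5 replicate 2 (-1.41), with array weights (-1.31) and in a model of these 6 arrays only. Cdkn2a, the locus of p16 and ARF, rose by 1.02 ± 0.21, and this call was lost under 3 other scalings (0.94 to 0.99) and without non-cultured replicate 1 or 3 or b.End5 replicate 1 or 3 (0.87 to 0.98).

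Of 19 genes for signalling partners of the middle T antigen, 2 rose and 4 fell, with a median of -0.136. Over all genes, 9.1% were called higher, which is close to the share of this list that rose, and 9.06% lower. The members below are therefore given as single genes. Of the Src family kinases, Fyn was at 11.43, 11.38 and 11.36 in b.End5, against 10.25, 10.16 and 9.79 in non-cultured cells, and rose by 1.32 ± 0.19. Yes1 rose by 1.06 ± 0.17, a call lost under cyclic loess (0.97) and median centring (0.99) and without non-cultured replicate 2 (0.97) or b.End5 replicate 3 (0.94). Src was at 7.56, 6.62 and 7.14 in b.End5, against 8.98, 9.04 and 8.80 in non-cultured cells, and fell by 1.83 ± 0.22. The 3 kinases that bind middle T thus differed in direction at the level of transcripts. The adaptor Gab1 fell by 2.62 ± 0.15 and the catalytic subunit Pik3cb by 2.37 ± 0.15.

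Of 54 mesenchymal and matrix genes, 10 rose, 15 fell and 29 were not called (13 rose and 13 fell without b.End5 replicate 2), with a median of -0.052. Fn1, fibronectin, was at 8.76, 8.86 and 8.83 in b.End5, against 13.49, 13.51 and 13.53 in non-cultured cells (-4.70 ± 0.12, 25.9-fold, adjusted p = 1.61e-10). The actin of smooth muscle, Acta2, fell by 4.51 ± 0.35. Serpinh1, a collagen chaperone, was at 5.73, 11.60 and 5.76 in b.End5, against 12.54, 12.33 and 12.35 in non-cultured cells (-4.71 ± 1.17; -6.66 without b.End5 replicate 2). The collagens Col8a1 and Col15a1 rose by 4.81 ± 0.44 and 4.27 ± 0.85 (5.30 and 5.57 without b.End5 replicate 2), Col5a3 by 3.32 ± 0.45 and tenascin C, Tnc, by 2.37 ± 0.17. Col1a1 differed by -0.16 ± 0.51 (adjusted p = 0.8471), and the basement membrane collagen Col4a1 was at 13.10, 13.05 and 12.98 in b.End5, against 13.22, 13.14 and 13.10 in non-cultured cells, a difference of -0.11 ± 0.09.

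Proteases and their inhibitors rose more often than they fell. Of 35 measured, 13 rose and 4 fell (2 fell without non-cultured replicate 1), with a median of 0.537. The share called was 48.6%, beside 18.2% of all genes, and the share that fell was close to the 9.06% called lower over all genes. Adamts4, which cleaves aggrecan and versican, was at 12.88, 12.70 and 13.00 in b.End5, against 7.04, 7.03 and 7.09 in non-cultured cells (5.80 ± 0.11, 55.8-fold, adjusted p = 5.74e-11). Adam12 was at 10.37, 12.25 and 10.52 in b.End5, against 5.39, 5.20 and 5.16 in non-cultured cells (5.80 ± 0.39; 5.19 without b.End5 replicate 2). Both separated the groups by over 4 log2 units. The plasminogen activators moved in opposite directions, with urokinase, Plau, at 9.43, 11.78 and 9.26 in b.End5, against 5.21, 5.07 and 5.39 in non-cultured cells (4.93 ± 0.50; 4.12 without b.End5 replicate 2). Tissue plasminogen activator, Plat, was at 7.88, 8.08 and 7.65 in b.End5, against 11.89, 11.89 and 11.75 in non-cultured cells (-3.97 ± 0.34). Serpine2, which inhibits both, fell by 5.89 ± 0.55 (-5.01 without b.End5 replicate 2) and Adamts5 rose by 4.58 ± 0.40 (4.01 without it). Adam17 and Adamts10 fell by 1.11 ± 0.14 and 1.04 ± 0.18. The call of Adam17 was lost without non-cultured replicate 1 (-0.998), and that of Adamts10 without non-cultured replicate 1 or b.End5 replicate 1 or 3 (-0.98 to -0.95).

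Most genes of leukocyte adhesion and chemokines were not called. Of 35 measured, 5 rose and 5 fell (8 and 5 without b.End5 replicate 2), with a median of 0.073, so that 28.6% were called, beside 18.2% of all genes. Ccl2, which attracts monocytes, was at 11.43, 11.40 and 10.98 in b.End5, against 5.81, 6.40 and 6.80 in non-cultured cells (4.94 ± 0.31, 30.7-fold). Vcam1, the ligand of the integrin VLA-4, was at 7.39, 5.18 and 7.58 in b.End5, against 10.77, 11.11 and 10.83 in non-cultured cells (-4.19 ± 0.49; -3.42 without b.End5 replicate 2). Icam1, the ligand of LFA-1, was at 12.81, 11.68 and 12.76 in b.End5, against 13.14, 13.38 and 13.12 in non-cultured cells (-0.80 ± 0.28, adjusted p = 0.04551), under 2-fold and so not called. Cxcl12, which retains CXCR4-bearing cells at the vessel wall, fell by 5.58 ± 0.17, and Ccl3 was at least 7.07-fold lower (3.69 ± 0.21 in b.End5, 7.10 ± 0.36 in non-cultured cells, adjusted p = 5.21e-06). E-selectin, Sele, rose by 2.29 ± 0.32 and Mcam by 3.63 ± 0.18. Cxcl2 fell by 2.73 ± 0.71, but by 1.59 without b.End5 replicate 2 and by 1.79 with array weights. Cxcl5 was at least 1.3-fold higher (4.55 ± 1.48 in b.End5, 2.63 ± 0.12 in non-cultured cells, adjusted p = 0.02812; at least 2.33-fold without b.End5 replicate 2), and this call was lost in the model of 6 arrays and whenever any array other than b.End5 replicate 2 was left out (adjusted p up to 0.1137).

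Of 38 genes of the interferon response and MHC class I, 4 rose and 3 fell (8 and 2 without b.End5 replicate 2), with medians of -0.080 and 0.324 without it. The share called, 18.4%, was close to the 18.2% of all genes, so the members below are given as single genes and not as a result about the list. Median centring, or leaving out b.End5 replicate 1 or 3, gave 5 or 6 that fell. Oas3, a sensor of double-stranded RNA, was at 8.89, 5.39 and 9.52 in b.End5, against 4.70, 4.60 and 4.47 in non-cultured cells (3.35 ± 0.78; 4.62 without b.End5 replicate 2). Ifit2 was at 12.81, 10.98 and 12.65 in b.End5, against 9.86, 10.02 and 10.05 in non-cultured cells (2.17 ± 0.38; 2.75 without b.End5 replicate 2). Replicate 2 was the lowest b.End5 array for both. Irf8 rose by 1.79 ± 0.45 (2.44 without b.End5 replicate 2), the RNA sensor Ddx58 by 1.13 ± 0.13, and the factor Irf1 fell by 1.45 ± 0.17. Gbp2 and Bst2 fell by 1.34 ± 0.42 and 1.14 ± 0.29, and both calls were lost without b.End5 replicate 2 (-0.74 and -0.84) and with array weights (-0.85 and -0.79). The call of Gbp2 was also lost in the model of 6 arrays and without any single non-cultured array (adjusted p = 0.05218 to 0.07104).

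Genes that mark arteries, capillaries and veins in the brain fell in most members. Of 33 measured, 21 fell and 5 rose, with a median of -2.835. Of genes given above, Slc38a5, Car4, Mgp, Sox17 and Vwf belong to this list, and Nr2f2, of veins, is among those that rose. The arterial vasoconstrictor Edn1 was at 5.59, 6.06 and 5.04 in b.End5, against 12.48, 12.58 and 12.04 in non-cultured cells (-6.80 ± 0.28, 112-fold). The arterial kinase Bmx fell by 5.06 ± 0.33 and Gkn3 by 5.94 ± 0.28. Nrp2, a receptor of veins and lymphatics, rose by 1.36 ± 0.19. Lcn2 rose by 2.07 ± 0.60, a call lost when non-cultured replicate 3 (adjusted p = 0.05152) was left out, and likewise b.End5 replicate 1 (adjusted p = 0.05234), and Fbln5 by 1.85 ± 0.48, which was 1.15 without b.End5 replicate 2.

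Of 37 genes of VEGF and angiopoietin signalling and tip cells, 10 rose and 14 fell, with a median of -0.474. Pdgfb, the pericyte-recruiting growth factor, was at 4.03, 4.38 and 4.59 in b.End5, against 10.89, 10.50 and 10.36 in non-cultured cells (-6.25 ± 0.26, 76.1-fold). Vegfa was at 7.96, 8.34 and 8.32 in b.End5, against 5.89, 6.09 and 6.35 in non-cultured cells (2.09 ± 0.22, 4.27-fold). The endothelin pair thus moved in opposite directions, since Edn1 fell and its receptor Ednrb rose. Adm, adrenomedullin, fell by 4.25 ± 0.18, while its receptor partner Ramp3 rose by 3.12 ± 0.59 and Trp53i11 by 2.86 ± 0.30.

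Of 44 genes of Notch and TGF-beta family signalling, 21 fell and 5 rose, with a median of -0.917. The Notch ligand Dll1 was at 12.22, 12.91 and 12.39 in b.End5, against 8.85, 9.02 and 9.59 in non-cultured cells (3.35 ± 0.32, 10.2-fold), and the ligand Jag2 was at 6.25, 6.38 and 6.24 in b.End5, against 10.95, 10.94 and 10.74 in non-cultured cells (-4.59 ± 0.17, 24.0-fold). Hey1, a Notch target, fell by 4.60 ± 0.58 (-3.67 without b.End5 replicate 2). The BMP targets Id3 and Smad6 were lower, Id3 by 3.20 ± 0.46 on the log2 scale and Smad6 at least 11.3-fold (4.04 ± 0.26 in b.End5, 7.78 ± 0.01 in non-cultured cells, adjusted p = 2.74e-06). Inhbb, an activin subunit, rose by 3.94 ± 0.30. Bmper, a BMP regulator, was at 7.51, 3.22 and 7.20 in b.End5, averaged 5.98 ± 2.40 there and 2.76 ± 0.12 in non-cultured cells, and was at least 3.49-fold higher (adjusted p = 0.01494), which was not called without b.End5 replicate 1 or without replicate 3 (adjusted p = 0.06433 and 0.06188). The bound was 9.09-fold without b.End5 replicate 2, and 2.05-fold and 2.29-fold without replicate 1 and without replicate 3. Ltbp1 rose by 1.58 ± 0.42, a call lost without non-cultured replicate 1 (adjusted p = 0.05045).

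Of 23 genes of caveolae and vesicle transport, 2 rose and 5 fell (3 fell without non-cultured replicate 1), with a median of 0.071. The share called was 30.4%, beside 18.2% of all genes. The share that rose was close to the 9.1% called higher over all genes, so the members are given as single genes. Cav1, the main coat protein of caveolae, was at 12.11, 12.20 and 12.15 in b.End5, against 12.43, 12.21 and 12.66 in non-cultured cells, and was not called (-0.28 ± 0.13, adjusted p = 0.1236). Among the coat's cavins, Cavin3 rose by 2.32 ± 0.22 and Cavin2 fell by 1.49 ± 0.12. Cavin1 fell by 1.06 ± 0.19, a call lost without non-cultured replicate 1 (-0.93) or b.End5 replicate 1 (-0.95), and Flot1 by 1.23 ± 0.28. Of 27 coagulation and prostanoid genes, 6 rose and 9 fell, with a median of -0.137. The cyclooxygenase Ptgs1 was at 10.77, 11.71 and 10.92 in b.End5, against 4.84, 5.41 and 5.55 in non-cultured cells (5.87 ± 0.46, 58.4-fold), and prostaglandin E synthase Ptges fell by 3.48 ± 0.16. Factor VIII, F8, rose by 4.27 ± 0.48 (3.62 without b.End5 replicate 2). The thrombin receptor F2r was at 12.07, 8.68 and 11.96 in b.End5, against 7.85, 8.43 and 8.85 in non-cultured cells, and rose by 2.52 ± 0.69 although the arrays overlapped. This call was lost in the model of 6 arrays and without non-cultured replicate 1 or b.End5 replicate 1 or 3 (adjusted p = 0.05266 to 0.05957 over these), and the difference was 3.64 without b.End5 replicate 2.

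Enzymes of the metabolic barrier, which degrade drugs and transmitters, fell in most called members. Of 37 measured, 17 fell and 5 rose, with a median of -0.894, and 3 rose when any array other than b.End5 replicate 2 was left out. Gsta4, a glutathione transferase, was at 7.23, 4.87 and 6.90 in b.End5, against 13.62, 13.53 and 13.60 in non-cultured cells (-7.25 ± 0.47, 152-fold; -6.52 without b.End5 replicate 2). Adh1, an alcohol dehydrogenase, fell by 6.94 ± 0.45, and the cytochrome Cyp2d22 was at least 58.6-fold lower (3.55 ± 0.20 in b.End5, 10.15 ± 0.16 in non-cultured cells, adjusted p = 2.41e-10). Nqo1, a quinone reductase, was at 11.67, 12.30 and 11.65 in b.End5, against 6.43, 6.86 and 6.88 in non-cultured cells (5.15 ± 0.23, 35.5-fold), and the glucuronosyltransferase Ugt1a6a rose by 4.82 ± 0.41 (4.26 without b.End5 replicate 2). Cyp1a1 rose by 2.60 ± 0.44 (3.21 without it). Cyp1b1 was at least 2.22-fold higher (5.32 ± 0.20 in b.End5, 3.53 ± 0.32 in non-cultured cells, adjusted p = 0.03504), but was not called when any 1 of the 6 arrays was left out (adjusted p = 0.05209 to 0.09785).

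In metabolism, 9 of 26 cholesterol and lipid synthesis genes rose and none fell by the limma test (16 higher and 0 lower at an unadjusted p under 0.05), with a median of 0.712. Squalene epoxidase, Sqle, was at 10.45, 9.90 and 10.29 in b.End5, against 7.60, 7.49 and 7.68 in non-cultured cells (2.62 ± 0.17), and Fasn, Msmo1 and Fdft1 rose by 2.24 ± 0.23, 1.87 ± 0.23 and 1.68 ± 0.18. Of 33 targets of ATF4, the factor of amino acid stress, 11 rose and 4 fell (7 and 4 without b.End5 replicate 2), with a median of 0.844. Those that fell were the amino acid carriers Slc7a5, Slc7a1, Slc7a3 and Slc3a2, whereas the folate enzyme Mthfd2 rose by 3.62 ± 0.34 (3.12 without b.End5 replicate 2), the stress protein Nupr1 by 3.94 ± 0.54 (3.17 without it) and Psat1, of serine synthesis, by 2.35 ± 0.23. Of 23 glycolysis and hypoxia genes, 3 rose and 5 fell, with a median of 0.164. Egln3 was at 11.47, 11.22 and 11.71 in b.End5, against 4.26, 4.11 and 3.94 in non-cultured cells, and P4ha1 rose by 1.45 ± 0.17, while the hypoxia-inducible factor Epas1 fell by 2.29 ± 0.15 and Ndrg1 by 1.65 ± 0.15. None of 44 oxidative phosphorylation genes and none of 10 housekeeping genes were called by limma. At an unadjusted p under 0.05, 15 of the oxidative phosphorylation genes were higher and 1 lower, and 2 of the housekeeping genes were higher and 1 lower. Their largest differences were 0.85 ± 0.14 for Ndufa8, of complex I, and -0.53 ± 0.12 for Gusb.

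**Figure D4:**
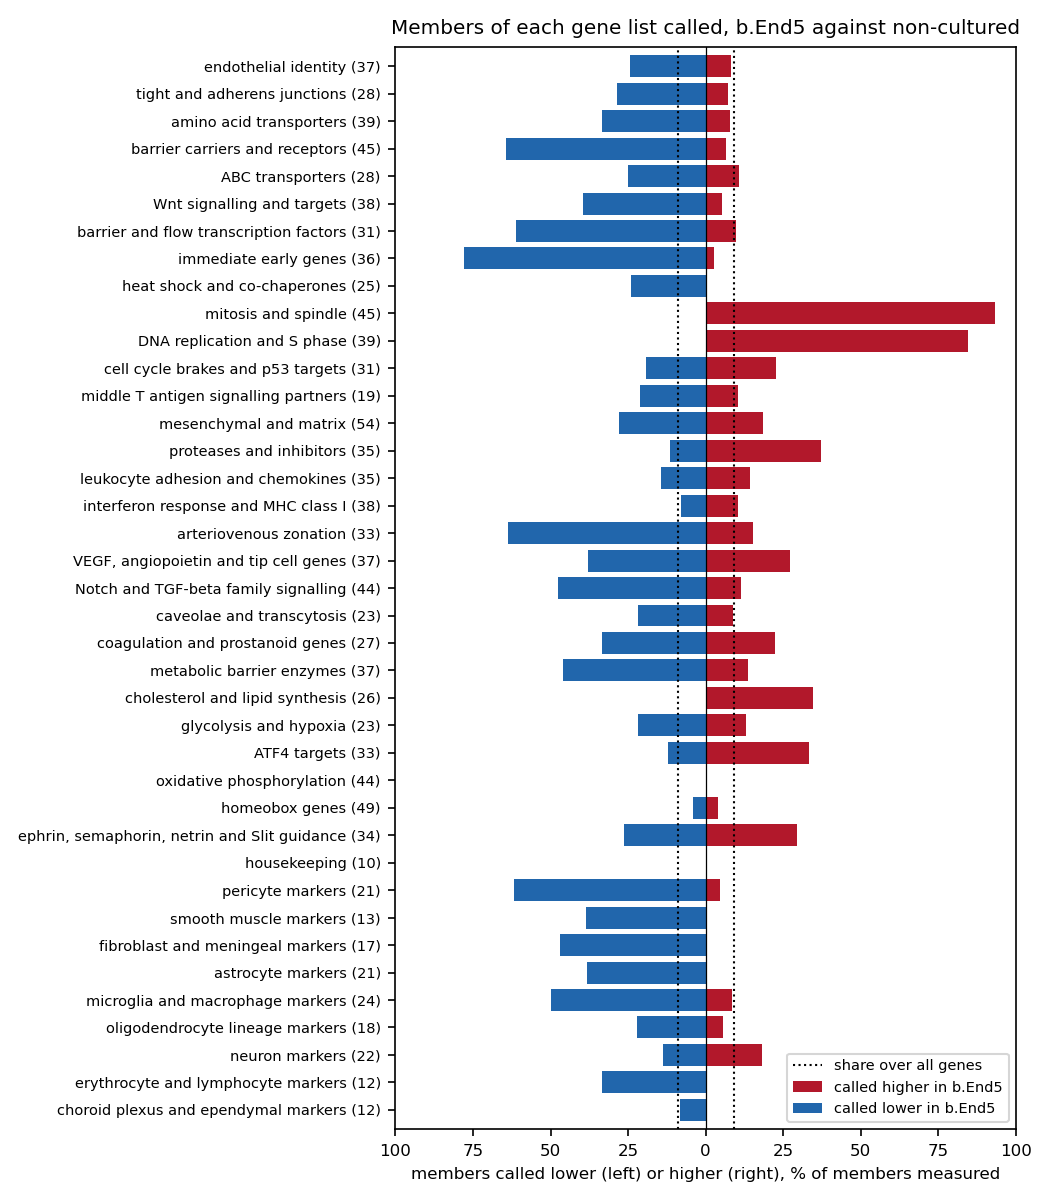
Share of the measured members of each list (number in brackets) called higher in b.End5 (red, to the right) and called lower (blue, to the left), in percent. Dotted lines mark the shares over all genes, 9.1% higher and 9.06% lower; mitosis (42 of 45 higher) and immediate early genes (28 of 36 lower) reach furthest on either side.

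Markers of other cell types were read beside these results. Levels were summed over a list on the linear scale. Pericyte markers summed to 3608 to 4433 on the b.End5 arrays and to 9149 to 10828 on the non-cultured arrays, and of 21 measured, 13 fell and 1 rose. Rgs5 was at least 110-fold lower (3.90 ± 0.26 in b.End5, 11.06 ± 0.26 in non-cultured cells, adjusted p = 4.26e-10), Vtn fell by 6.53 ± 0.42, the receptor Pdgfrb was at 4.44, 4.52 and 4.82 in b.End5, against 7.79, 8.51 and 8.88 in non-cultured cells, and Mcam, which endothelium also makes, was the marker that rose. Zic1 was at least 6.81-fold lower (2.31 ± 0.17 in b.End5, 7.05 ± 0.55 in non-cultured cells, adjusted p = 1.26e-05). Transcripts of pericytes were thus present in the non-cultured RNA and lower in the line, and their part in the results for Foxf2 and other genes that pericytes express was not tested.

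Smooth muscle markers summed to 1285 to 1357 in b.End5 and 2533 to 4344 in non-cultured cells (5 of 13 fell, 0 rose by limma, and 0 were higher at an unadjusted p under 0.05). Fibroblast and meningeal markers summed to 942 to 1558 and 3485 to 6142 (8 of 17 fell, 5 without non-cultured replicate 2; 0 rose by limma, 1 was higher at an unadjusted p under 0.05). Astrocyte markers summed to 8037 to 8628 and 14502 to 16947 (8 of 21 fell, 0 rose by limma, 0 were higher at an unadjusted p under 0.05), with Aqp4 at the no-target level in both groups. Microglia and macrophage markers summed to 3402 to 4116 and 3965 to 6179, again with b.End5 first, and 12 of 24 fell and 2 rose. Ctss, a macrophage protease, was at least 31.2-fold lower (3.76 ± 0.47 in b.End5, 9.24 ± 0.52 in non-cultured cells, adjusted p = 1.96e-07), and Ptprc, the leukocyte antigen CD45, at least 7.79-fold (2.75 ± 0.16 and 7.24 ± 0.21, adjusted p = 5.34e-06). Tmem119 rose by 2.17 ± 0.52, but by 1.39 without b.End5 replicate 2. Mrc1 rose by 1.75 ± 0.64 with overlapping arrays, a call lost under 3 other scalings, under 2 other models, under the replicate block and without non-cultured replicate 1 or 2 or b.End5 replicate 1 or 3 (adjusted p = 0.05144 to 0.1934 over these).

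Oligodendrocyte markers summed to 830 to 4138 in b.End5 and 8682 to 10316 in non-cultured cells, and of 18 measured, 4 fell (2 without non-cultured replicate 2) and 1 rose. Mbp, the main myelin protein, was at least 16.2-fold lower (3.82 ± 0.12 in b.End5, 8.30 ± 0.96 in non-cultured cells, adjusted p = 0.000104). Mal, of the same list, fell by 2.52 ± 0.90, but by 1.09 without b.End5 replicate 2, and its call was lost in 2 other models, under the replicate block and without any single non-cultured array (adjusted p = 0.05376 to 0.116). Cnp rose by 1.03 ± 0.21, a call lost under 3 other scalings (0.93 to 1.00) and without non-cultured replicate 2 or 3 or b.End5 replicate 1 or 3 (0.95 to 0.98), and Pdgfra fell by 1.04 ± 0.17, a call lost without non-cultured replicate 2 (-0.94) or b.End5 replicate 3 (-0.97). Neuron markers summed to 1381 to 13188 in b.End5 and 768 to 982 in non-cultured cells, the high value on the array labelled b.End5 replicate 2, and of 22 measured, 4 rose and 3 fell (5 fell without b.End5 replicate 3). The neurofilaments Nefl and Nefm were at 9.26, 12.97 and 9.53 and at 6.76, 12.17 and 6.20 in b.End5, against 4.73, 4.40 and 5.59 and 2.96, 2.76 and 2.91 in non-cultured cells. Nefl rose by 5.68 ± 0.80 (4.48 without b.End5 replicate 2), and Nefm was at least 18.4-fold higher (means 8.38 ± 3.30 and 2.88 ± 0.10, adjusted p = 0.002431). The bound of Nefm was 4.95-fold without b.End5 replicate 2, and 32.3-fold and 39.2-fold without replicate 1 and without replicate 3. The synaptic Snap25 was at least 5.65-fold lower (3.16 ± 0.55 in b.End5, 6.78 ± 0.51 in non-cultured cells, adjusted p = 1.49e-06). Erythrocyte and lymphocyte markers summed to 259 to 308 in b.End5 and 876 to 1198 in non-cultured cells. Of 12 measured, 4 fell (2 with the dimmest genes left out, as that filter removed the others). None rose by limma (1 was higher at an unadjusted p under 0.05), and the haem enzyme Alas2 fell by 3.40 ± 0.31. Among choroid plexus and ependymal markers, 352 to 420 in b.End5 and 925 to 6811 in non-cultured cells, Ttr was at 3.33, 3.54 and 3.43 in b.End5, against 8.91, 10.22 and 12.63 in non-cultured cells, and was at least 79.1-fold lower (means 3.43 ± 0.10 and 10.59 ± 1.89, adjusted p = 7.14e-06; at least 39-fold without non-cultured replicate 3 and 141-fold without replicate 1). The part of these cell types in the differences was not tested.

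To see which differences also held against primary cells in culture, b.End5 was tested against the single-cultured and co-cultured arrays in the same model. These comparisons share the b.End5 arrays with the main one. Against single-cultured cells 2139 genes were called (14.1%), 950 higher (6.25%) and 1189 lower (7.82%). Against co-cultured cells 1986 were called (13.1%), 776 higher (5.1%) and 1210 lower (7.96%). The medians over all genes were 0.082 and 0.103. Of the 45 mitosis genes, 23 were higher in b.End5 than in single-cultured cells (median 1.021) and none was called against co-cultured cells by limma (median 0.029; 6 higher and 5 lower at an unadjusted p under 0.05). Of the barrier carriers, 22 of 45 were lower than in single-cultured cells (4 higher) and 21 lower than in co-cultured cells (4 higher). Slco1a4 was at least 215-fold and 98.6-fold lower than in single-cultured and co-cultured cells. Of the immediate early genes, 9 of 36 were lower than in single-cultured and 11 lower than in co-cultured cells (2 higher in each).

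Klf2, Klf4, Ddc and Tnc in b.End5 lay between their levels in non-cultured and in cultured primary cells. Klf2 was 3.62 higher than in single-cultured and 3.04 higher than in co-cultured cells, and Klf4 2.30 and 2.34 higher, while both lay below non-cultured cells. Dll1 was higher than in all 3 kinds of primary cells, by 6.63 against single-cultured, 5.87 against co-cultured and 3.35 against non-cultured cells. Ddc, the decarboxylase that makes dopamine, was at 7.79, 8.27 and 7.88 in b.End5 against 10.77, 10.60 and 10.65 in non-cultured cells (-2.69 ± 0.18), and was at least 12.9-fold and 14.9-fold higher in b.End5 than in single-cultured and co-cultured cells, where it lay at the no-target level (adjusted p = 2.29e-09 and 2.44e-09). Tnc was 6.01 and 6.13 lower than in single-cultured and co-cultured cells, although it was higher than in non-cultured cells. Of 54 mesenchymal and matrix genes, 30 were lower than in single-cultured (8 higher) and 34 lower than in co-cultured cells (4 higher), with medians of -1.490 and -2.092. Smooth muscle markers summed to 11650 to 16356 in single-cultured and 13510 to 21750 in co-cultured cells, against 1285 to 1357 in b.End5. Microglia and macrophage markers summed to 17938 to 28849 and 15965 to 34488, against 3402 to 4116. Not every list was higher there: erythrocyte and lymphocyte markers summed to 237 to 254 and 225 to 273, against 259 to 308. The part of other cell types in the differences from cultured cells was not tested. Of 38 interferon and MHC class I genes, 17 were higher than in single-cultured cells and 17 higher than in co-cultured cells (1 lower in each), with medians of 0.982 and 1.050. Vwf was 6.07 and 5.88 lower, Edn1 7.61 and 6.99 lower and Angpt2, an antagonist of Tek, 6.82 and 6.95 lower than in single-cultured and co-cultured cells.

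**Figure D5:**
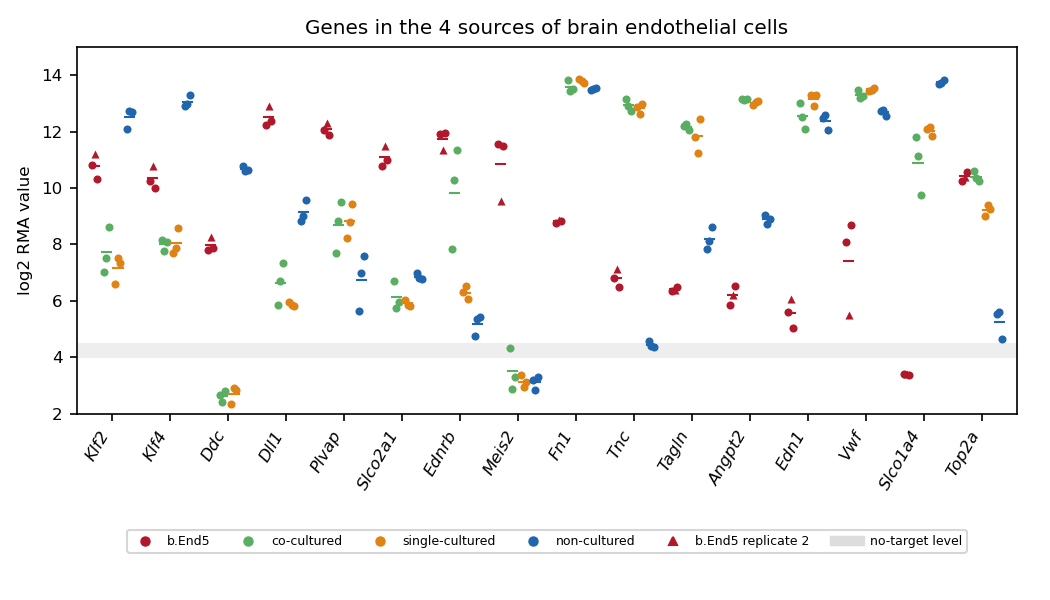
Log2 values of 16 genes on each array of b.End5 (red; triangle, replicate 2), co-cultured (green), single-cultured (orange) and non-cultured cells (blue), with bars at group means and a grey band for the no-target levels of 4.01 to 4.46. Klf2, Klf4 and Ddc lie between non-cultured and cultured primary cells in b.End5, Meis2 and Slco2a1 are highest in b.End5, and Vwf and Edn1 are low in b.End5.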

How the data were processed

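Total RNA of 4 cell sources, 3 arrays each, had been DNase-treated and reverse-transcribed with a kit to biotin-labelled cDNA, per the labels' protocols. The deposited values are log2 expression made by the authors with RMA, per the submitters' processing notes; for the RMA version and the probe set definition nothing was given in the sources used here. Of 21625 probe sets, 64 controls were set aside and 16537 of 21561 RefSeq names matched 1 symbol in the RefSeq GRCm38.p6 table. Of 987 genes with several probe sets, the one with the highest mean over 12 arrays was kept, leaving 15204 genes. No column was left unmapped.

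A model of 4 group means over all 12 arrays was fitted by lmFit and eBayes of limma 3.58.1 (R 4.3.3), with 8 residual degrees of freedom, and every adjusted p in the text is limma's, adjusted by Benjamini-Hochberg over 15204 genes. Tables and figures used Python 3.11.15, pandas 2.3.3 and matplotlib 3.10.9. On simulated data of 15204 genes for b.End5 minus non-cultured cells, 89% of 100 genes changed by 1.5 log2 units and 98% of 100 changed by 3 were recovered, with 6 false calls. Each simulated gene had the same spread in all 4 groups and independent noise. No simulated array stood apart as b.End5 replicate 2 did, so these rates may not hold for the real arrays. Same-numbered arrays of both groups did not deviate together (correlations of -0.0783, 0.0024 and -0.0378), so they were not treated as pairs.

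Members and lists were chosen with earlier results of these data known. Named genes are the 15 largest rises and the 15 largest falls without overlap of arrays, up to 4 called members of each list in each direction (the largest difference where none was called), a fixed set of barrier, endothelial and growth genes, and the 8 genes furthest above and below in the array labelled b.End5 replicate 2. Others, such as Ddc, Slc16a1, Slco2b1, Erg, Pttg1, Jun, Angpt2, Col4a1 and Tnc against cultured cells, and the promoters of Top2a, Ccnb2, Hspb1 and Hspa1b, were chosen after their values were seen. Some genes that these rules name are not reported here. Alternatives covered 3 other scalings, a filter on dim genes, the mean of probe sets, 2 groups only, array weights, another spread model, a replicate block, no fold minimum and each array left out.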

Additional observations from a re-analysis of the deposited data

How the results depend on the processing

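Of 256 genes chosen by the naming rule, 227 had 1 call in every setting, of 15 tried, that kept the gene. Another 29 changed in some setting, and none reversed. A gene removed by the filter on dim genes was not tested in that setting. Of the 29, 8 were chosen only for their deviation in the array labelled b.End5 replicate 2. With the adjusted p alone and no minimum difference, 5774 genes were called against non-cultured cells (3236 higher, 2538 lower), 4591 against single-cultured cells (2458 higher, 2133 lower) and 4698 against co-cultured cells (2475 higher, 2223 lower). Leaving out 1 array gave 2653 to 2842 calls against non-cultured cells (1318 to 1466 higher, 1332 to 1381 lower), 2046 to 2294 against single-cultured cells (898 to 1059 higher, 1141 to 1235 lower) and 1874 to 2111 against co-cultured cells (704 to 877 higher, 1167 to 1234 lower). Against non-cultured cells, cyclic loess gave 2727 calls (1203 higher, 1524 lower) and median centring 2732 (1227 higher, 1505 lower). The replicate block gave 2753 (1383 higher), and among named genes it ended the calls of Mal (adjusted p = 0.06192 in limma) and Mrc1 (adjusted p = 0.05457 in limma); the numbers did not pair the arrays. Genes at or under the no-target level have bounds only, and 2135 genes were there in both groups. The cause of the changes was not tested.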

Other observations

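Genes that guide axons and vessels differed in both directions. Of 34 measured, 10 rose and 9 fell (12 and 8 without b.End5 replicate 2), with a median of -0.065, beside 9.1% higher and 9.06% lower over all genes. Robo1, a receptor for Slit proteins, was at 8.74, 5.70 and 8.86 in b.End5, against 3.06, 3.34 and 3.46 in non-cultured cells, and was at least 12.1-fold higher (means 7.77 ± 1.79 and 3.29 ± 0.20, adjusted p = 0.000171 in limma; at least 24.7-fold without b.End5 replicate 2). Sema3c, a secreted semaphorin, was at 4.63, 8.39 and 4.48 in b.End5, against 12.63, 12.30 and 12.32 in non-cultured cells (-6.58 ± 0.77; -7.86 without b.End5 replicate 2). Epha4, an ephrin receptor, fell by 3.79 ± 0.61 (-2.81 without b.End5 replicate 2). The arrays of both groups did not overlap for these genes, as for 49.2% of all genes. Replicate 2 lay furthest from the other b.End5 arrays in each.

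Of 49 homeobox genes, 2 rose and 2 fell, with a median of 0.176, so that 8.16% were called, beside 18.2% of all genes. At the no-target level lay 28 of them in non-cultured cells and 18 in b.End5. The members below are given as single genes and not as a result about the list. With b.End5 replicate 1 left out 4 rose, and without any single non-cultured array 1 rose. None rose with the dimmest genes left out, because that filter removed Meis2 and Hoxd8, which were not tested there. At an unadjusted p under 0.05 in limma, 5 were higher and 4 lower. Besides Meis2, Hoxd8 was at 5.03, 8.84 and 4.64 in b.End5, against 3.15, 3.14 and 3.27 in non-cultured cells, and was at least 4-fold higher (means 6.17 ± 2.32 and 3.19 ± 0.07, adjusted p = 0.02147 in limma). Its call was lost in the model of 6 arrays and without any single non-cultured array (adjusted p = 0.05153 to 0.05727 in limma), and the bound was 1.59-fold without b.End5 replicate 2 and 6.78-fold without replicate 3. Meox1 fell by 3.33 ± 0.26 and Msx1 fell by 1.30 ± 0.19.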
